A study of Homo sapiens with 12 samples.

Results

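The histone H3-H4 chaperones examined here are 9 genes: ASF1A, ASF1B, NASP, CHAF1A, CHAF1B, HIRA, UBN1, CABIN1 and SLBP. They were taken by symbol from the 14828 genes of the expression table, and all 9 were found and passed the filter on low values that left 14624 genes. Their mRNA was measured by poly(A)-selected RNA-seq in 22Rv1 cells, an established human prostate cancer line, which carried a doxycycline-inducible short hairpin RNA (shRNA) from a lentiviral vector. The shRNA was non-targeting (shNT) or was 1 of 2 directed at CENPA, the histone H3 variant of centromeric chromatin (shCENPA1 and shCENPA2). All 3 groups received doxycycline at 2 µg/ml for 72 h, so that the control cells carried the vector and the drug as well. The cells of each group were transduced cells of this single line kept under puromycin, and whether they were pools or clones is not stated in the sources used here. Each group had 2 libraries, each sequenced in 2 lanes that were averaged, and the labels did not say whether the libraries came from separate cultures, so the p-values measure the spread between libraries only.

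Newly made histones H3 and H4 are handed from one chaperone to the next before they reach DNA. NASP holds a soluble store of H3-H4, and the paralogs ASF1A and ASF1B bind H3-H4 dimers and pass them on to the depositing complexes. The CAF-1 complex, whose large subunits are CHAF1A and CHAF1B, binds PCNA and deposits H3-H4 behind the replication fork, whereas HIRA, with UBN1 and CABIN1, deposits the variant H3.3 independently of replication. SLBP binds the stem-loop at the end of replicative histone mRNAs, which lack a poly(A) tail, and is needed for their processing and translation. CENPA has a chaperone of its own, HJURP.

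The libraries held between 79172294 and 133074655 reads on genes, and each chaperone was counted from at least 893 reads in every library. Expression is given as log2 RPKM, which adjusts a gene's reads for gene length and sequencing depth. CENPA stood at 2.46 and 2.18 in the control, at 0.50 and 0.58 under shCENPA1 and at -0.47 and -0.41 under shCENPA2. That left 29.1% of the control level (95% confidence interval 22.6 to 37.5) with shCENPA1 and 14.7% (11.5 to 19) with shCENPA2. All 8 prostate epithelial markers examined were in the table, although KLK3 and KLK2 were low, between -2.17 and -0.48 and between -0.77 and 0.62 log2 RPKM. Of 9 markers of blood, endothelial, stromal and muscle cells, 7 were not in the table. The other two, LUM and COL1A1, summed to 3.55 and 3.84 RPKM in the shNT libraries, to 3.07 and 3.13 with shCENPA1 and to 5.52 and 5.65 with shCENPA2. LUM, a stromal proteoglycan, was higher with shCENPA2 than in shNT, by 0.74 on the log2 scale (adjusted p = 0.00386, limma), and than with shCENPA1, by 1.15 (adjusted p = 0.00357), and its part in the results below was not tested.

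The promoters of the ASF1 and CAF-1 genes are shown because both pairs are compared below, and because 1 member of the ASF1 pair fell and the other did not. Each run is the 250 bases before the RefSeq start (GRCh38.p14), 5′ to 3′ on the strand of the gene, which lies at chr19:14136590-14136839 on the minus strand for ASF1B, and on the plus strand at chr6:118893902-118894151 for ASF1A, chr19:4402390-4402639 for CHAF1A and chr21:36385142-36385391 for CHAF1B. Capitals mark matches, on either strand, to the CCAAT box, which reads ATTGG on the other strand. They also mark the cell cycle homology region (CHR), searched as TTTGAA and in the alternative spelling of the same element, which is TTCGAA here. The last motif was the core of the E2F site, searched as TTGGCGC and in 3 other spellings, of which one was TTCCCGC, another had the letters TTCGCGC and the remaining one was spelled TTGCCGC.
ASF1B: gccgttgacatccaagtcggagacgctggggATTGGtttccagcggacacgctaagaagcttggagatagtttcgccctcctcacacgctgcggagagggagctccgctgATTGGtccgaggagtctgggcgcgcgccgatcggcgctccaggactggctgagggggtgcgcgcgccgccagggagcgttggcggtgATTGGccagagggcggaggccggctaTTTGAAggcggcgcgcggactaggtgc
ASF1A: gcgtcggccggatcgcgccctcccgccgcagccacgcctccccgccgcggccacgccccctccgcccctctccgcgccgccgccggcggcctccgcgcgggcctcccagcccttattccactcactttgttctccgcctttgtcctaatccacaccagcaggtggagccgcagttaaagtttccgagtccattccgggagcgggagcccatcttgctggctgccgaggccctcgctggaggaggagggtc
CHAF1A: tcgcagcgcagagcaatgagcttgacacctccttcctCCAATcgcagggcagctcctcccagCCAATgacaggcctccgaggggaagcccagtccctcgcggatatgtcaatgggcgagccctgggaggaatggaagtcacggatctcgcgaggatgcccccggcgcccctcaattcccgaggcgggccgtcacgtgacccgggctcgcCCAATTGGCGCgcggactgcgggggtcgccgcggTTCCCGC
CHAF1B: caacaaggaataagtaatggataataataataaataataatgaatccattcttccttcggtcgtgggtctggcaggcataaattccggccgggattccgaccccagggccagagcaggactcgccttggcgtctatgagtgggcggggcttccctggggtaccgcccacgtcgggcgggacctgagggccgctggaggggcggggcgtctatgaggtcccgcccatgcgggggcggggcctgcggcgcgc
The ASF1B promoter held a CHR match 27 to 22 bases before the start and 3 CCAAT matches, all on the opposite strand. The ASF1A promoter held none of these letters. In the CHAF1A promoter there were 4 CCAAT matches and 2 E2F cores. The CCAAT matches at 41 to 37 and at 38 to 34 bases before the start overlapped, on opposite strands. The E2F core TTGGCGC shared bases with both of them, and TTCCCGC ended at the start itself. In the CHAF1B promoter there was no match. SLBP, which fell, had none and NASP had 1 CCAAT match, whereas of the genes that were not called HIRA had an E2F core, CABIN1 had 2 CCAAT matches, and UBN1 had 2 CCAAT matches in one of its promoters and a CHR match in the other. Among 35116 promoters of the same kind, cut to the same length, 32% held a CCAAT match, 14.3% held a CHR match and 10.9% held an E2F core. Both a CHR and a CCAAT match were held by 5.05%, and at least 3 CCAAT matches by 2.93%. These are matches of letters and no binding was measured.

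The 9 chaperones were chosen with earlier results of these data known. Of them, 4 fell with shCENPA1 (ASF1B, CHAF1A, CHAF1B and SLBP) and 5 fell with shCENPA2 (the same 4 and NASP). No chaperone rose with either shRNA. Among all genes tested, 4.45% fell and 2.69% rose with shCENPA1, and 10.5% fell and 8.05% rose with shCENPA2; 4.13% fell with both. The median change of the 9 chaperones was -0.31 on the log2 scale with shCENPA1 and -0.47 with shCENPA2, beside 0.003 and 0.012 for all genes tested. Calls are from limma over all 6 libraries, with an adjusted p (Benjamini-Hochberg over all genes tested) below 0.05, and the comparisons with the 2 shRNAs share the shNT libraries. For 5 of the 9 chaperones (ASF1B, NASP, CHAF1A, CHAF1B and SLBP) all 4 CENPA-targeted libraries lay below both shNT libraries, as they did for 20.5% of genes, and for none of the 9 did all 4 lie above both, as they did for 20.3% of genes. With 1 library left out, the number that fell with shCENPA1 was 1 (without shNT library 1) or 2 (without shNT library 2, or without either shCENPA1 library), and the number with shCENPA2 was 4 or 5. In bulk RNA, fewer cells of a kind and less mRNA per cell cannot be told apart.

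**Figure D1:**
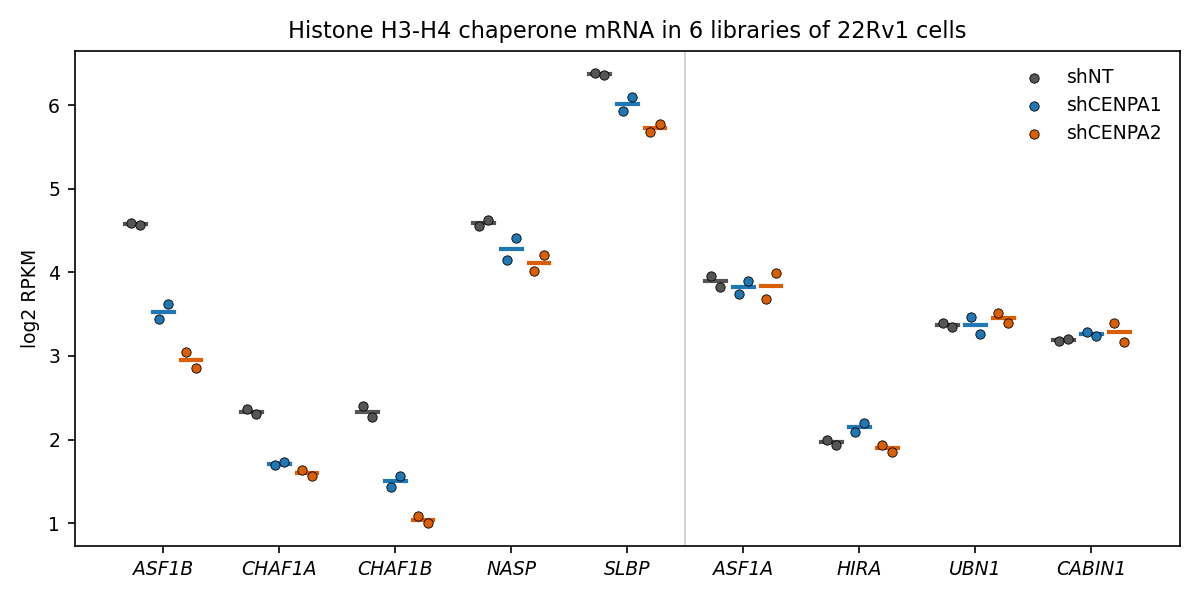
Expression of the 9 chaperones (x axis) as log2 RPKM (y axis) in the 2 libraries each of shNT, shCENPA1 and shCENPA2; points are libraries and horizontal bars are group means. Left of the vertical line, the 4 CENPA-targeted libraries lay below both shNT libraries for all 5 genes; right of it, the shNT values of ASF1A, UBN1 and CABIN1 overlapped those of CENPA-targeted libraries, and HIRA was higher with shCENPA1 (2.09 and 2.20) than in shNT (2.00 and 1.93) with no call.

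The 2 ASF1 paralogs, which bind H3-H4 through the same kind of domain, differed in response. ASF1B (chr19:14119512-14136613, minus strand, GENCODE gene coordinates on GRCh38) was at 4.59 and 4.57 log2 RPKM in shNT, at 3.44 and 3.62 under shCENPA1 and at 3.05 and 2.86 under shCENPA2. The 3 groups did not overlap, and the values of shCENPA2 were lowest. The share of all genes whose 3 groups lie apart is not given here, for ASF1B or for the genes and the ratio below. The log2 fold change of ASF1B was -1.05 ± 0.11 (SE) with shCENPA1 (adjusted p = 0.000473, limma) and -1.63 ± 0.11 with shCENPA2 (adjusted p = 1.75e-05, limma), to 48.2% (95% interval 40.8 to 56.8) and 32.4% (27.5 to 38.2) of the control. It was the 1 chaperone to fall more than 2-fold with shCENPA1, as 1.83% of genes did, and without shCENPA1 library 1 its fold change was -0.97. The fall was larger with shCENPA2 than with shCENPA1, by -0.57 (95% interval -0.81 to -0.33; adjusted p = 0.0348, limma). ASF1B was the 1 chaperone called lower in that comparison, where 1.03% of genes were, and the call was lost without shCENPA1 library 1 (adjusted p = 0.0792, limma), shCENPA1 library 2 (0.293) or shCENPA2 library 2 (0.14), over a range of 4.98e-05 to 0.293 in all alternatives. CENPA mRNA too was lower with shCENPA2 than with shCENPA1, by -0.98 on the log2 scale (adjusted p = 0.0209, limma). That call was lost without shCENPA1 library 1 (adjusted p = 0.0908), shCENPA1 library 2 (0.212) or shCENPA2 library 2 (0.0571), with limma-voom (0.0778) and with 1 added to RPKM (0.0601, at a difference of -0.50), over a range of 1.77e-05 to 0.212 in all alternatives.

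ASF1A (chr6:118894152-118909171, plus strand) was at 3.96 and 3.83 log2 RPKM in shNT, at 3.74 and 3.90 with shCENPA1 and at 3.68 and 3.99 with shCENPA2. The 3 groups overlapped. The difference from shNT was -0.07 (95% interval -0.35 to 0.20; adjusted p = 0.775, limma) with shCENPA1 and -0.06 (-0.33 to 0.22; adjusted p = 0.795) with shCENPA2. The intervals leave between 78.7% and 116% of the control level, and so hold no fall of the size of ASF1B's. The 2 mRNAs could be told apart by the reads, since the longest stretch their transcripts shared exactly was 12 bases. Of the 2589 exon bases of ASF1A, 205 lie opposite exons of MCM9, which differed by -0.13 and 0.00 and was not called. Within a library, the log2 ratio of ASF1B to ASF1A was 0.64 and 0.74 in shNT, -0.30 and -0.29 with shCENPA1 and -0.63 and -1.13 with shCENPA2. All 4 CENPA-targeted libraries thus lay below both shNT libraries, by a mean of -1.28 (two-sided exact permutation p = 0.133, the smallest that 2 against 4 libraries can give). ASF1B was the more abundant paralog in shNT and the less abundant with shCENPA2. With shCENPA1 their order depends on the gene length behind RPKM. If the same reads were divided by GENCODE exon lengths, both would have a mean of 3.89 log2 RPKM.

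**Figure D2:**
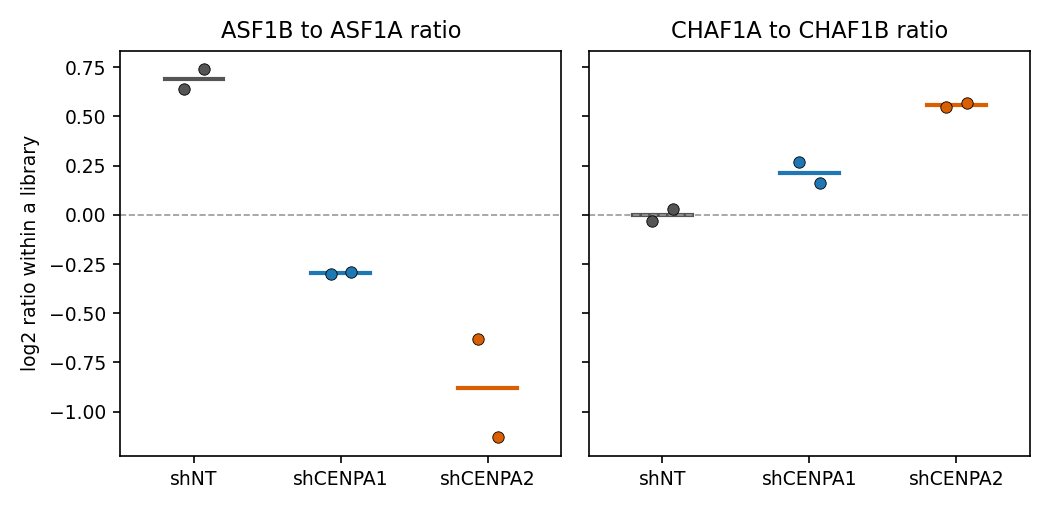
Log2 ratio of ASF1B to ASF1A (left) and of CHAF1A to CHAF1B (right) within each library (y axis) for shNT, shCENPA1 and shCENPA2; points are libraries, bars are group means and the dashed line marks equal RPKM. The ASF1 ratio fell from 0.69 in shNT to -0.29 and -0.88, and the CAF-1 ratio went from 0.00 to 0.21 and 0.56.

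Both large CAF-1 subunits fell with both shRNAs. CHAF1B (chr21:36385392-36419015, plus strand) was at 2.40 and 2.27 log2 RPKM in shNT, at 1.43 and 1.57 with shCENPA1 and at 1.08 and 1.00 with shCENPA2. The 3 groups did not overlap. The log2 fold change of CHAF1B was -0.84 ± 0.13 (SE) under shCENPA1 (adjusted p = 0.00488, limma) and -1.30 ± 0.13 under shCENPA2 (adjusted p = 0.000186, limma), to 56% and 40.7% of the control. ASF1B and CHAF1B were the 2 chaperones more than 2-fold lower with shCENPA2, as 4.45% of genes were. CHAF1A (chr19:4402640-4445018, plus strand), the subunit that binds PCNA, was at 2.37 and 2.30 in shNT, at 1.69 and 1.73 with shCENPA1 and at 1.63 and 1.57 with shCENPA2. Its values with the 2 shRNAs lay close together and below those of shNT. Its fold changes were -0.62 ± 0.12 (adjusted p = 0.0131, limma) and -0.74 ± 0.12 (adjusted p = 0.00248, limma), to 64.9% and 60% of the control. The call of CHAF1A with shCENPA1 was lost when any shNT or shCENPA1 library was left out (adjusted p from 0.0591 to 0.145, limma, with fold changes of -0.66 to -0.59), and that of CHAF1B without shNT library 1 (adjusted p = 0.062, the highest of its alternatives, which began at 9.01e-07).

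The 2 subunits fell by unequal amounts. The log2 ratio of CHAF1A to CHAF1B was -0.03 and 0.03 in shNT, 0.27 and 0.16 with shCENPA1 and 0.55 and 0.57 with shCENPA2. The 3 groups did not overlap, and the CENPA-targeted libraries lay 0.39 above shNT on average (two-sided exact permutation p = 0.133, again the smallest possible). Between the shRNAs CHAF1B differed by -0.46 (95% interval -0.76 to -0.16; adjusted p = 0.157, limma) and CHAF1A by -0.11 (-0.38 to 0.15; adjusted p = 0.736, limma), neither of which passed the threshold. The near equality of both subunits in shNT rests on the gene model, because the RPKM of CHAF1A was computed over 10487 bases, whereas its GENCODE exons cover 4326. If the same reads were divided by the latter length, CHAF1A would lie 1.28 higher on the log2 scale in every library, with the same fold changes. Whether all of these reads fall within the GENCODE exons is not known. CHAF1A exons overlap those of UBXN6 on the opposite strand by 20 bases, and CHAF1B exons those of MORC3 on the same strand by 89 of 5104 bases. MORC3 differed by 0.04 and -0.07 and was not called, and UBXN6 rose by 0.47 and 0.46.

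**Figure D3:**
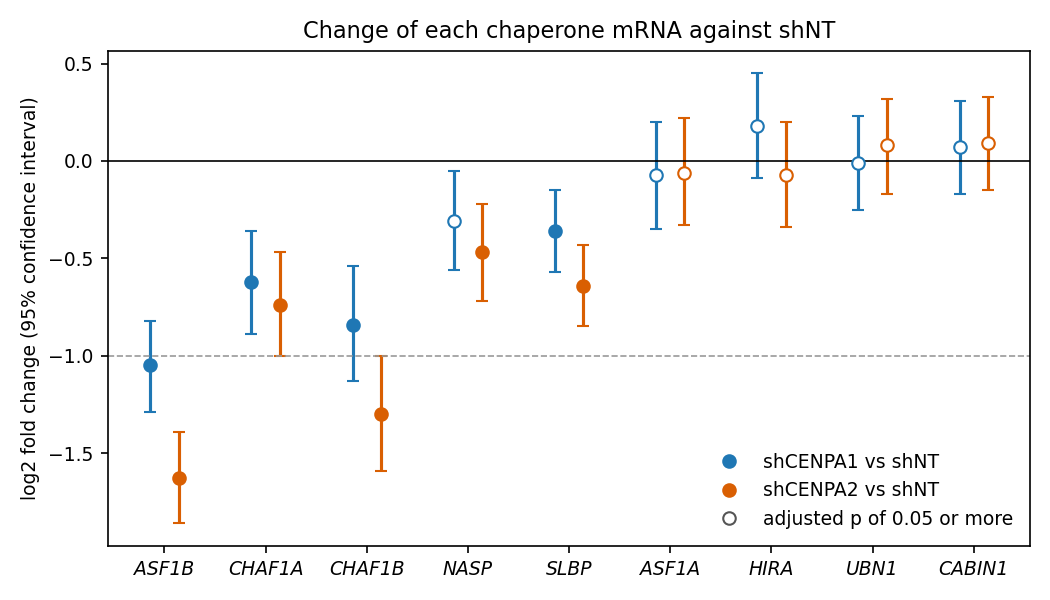
Log2 fold change against shNT (y axis) of each chaperone (x axis) with shCENPA1 and shCENPA2, from limma over all 6 libraries; bars are 95% confidence intervals, open circles have an adjusted p of 0.05 or more, and the dashed line marks a 2-fold fall. ASF1B (-1.05 and -1.63) and CHAF1B (-0.84 and -1.30) changed most, and the intervals of ASF1A, HIRA, UBN1 and CABIN1 contain 0.

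NASP (chr1:45583846-45618904, plus strand), the holder of the soluble H3-H4 store, was at 4.55 and 4.62 log2 RPKM in shNT, at 4.15 and 4.41 with shCENPA1 and at 4.02 and 4.21 with shCENPA2. All 4 CENPA-targeted libraries were below both shNT libraries, and those of the 2 shRNAs overlapped. NASP fell with shCENPA2, with a log2 fold change of -0.47 ± 0.11 (adjusted p = 0.0181, limma), to 72.2% of the control (95% interval 60.6 to 86). With shCENPA1 the difference was -0.31 ± 0.11 and did not pass the threshold (adjusted p = 0.146, limma). The call with shCENPA2 was lost without shNT library 1 (adjusted p = 0.0612, limma), shNT library 2 (0.122) or shCENPA2 library 1 (0.0885), over a range of 0.000121 to 0.122 in all alternatives. A NASP pseudogene, NASPP1, is annotated, and reads shared with it could not be told apart here.

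SLBP (chr4:1692731-1712344, minus strand) was the most abundant of the 9, at 6.38 and 6.36 log2 RPKM in shNT, 5.93 and 6.09 with shCENPA1 and 5.68 and 5.77 with shCENPA2. The 3 groups did not overlap. SLBP fell with shCENPA2, with a log2 fold change of -0.64 ± 0.09 (adjusted p = 0.00141, limma), to 64.1% of the control. With shCENPA1 the fold change was -0.36 ± 0.09, close to the threshold (adjusted p = 0.0492, limma), and that call was lost without any 1 of the shNT and shCENPA1 libraries (adjusted p from 0.0709 to 0.333, limma). The replicative H3 and H4 mRNAs that SLBP binds are poorly captured by a poly(A)-selecting kit. Of 28 such genes, near-identical copies that can share reads, 7 were tested, and none was called with either shRNA by limma or by limma-voom on the reads. At an unadjusted p below 0.05, 2 were higher with shCENPA1, and 1 was lower and 1 higher with shCENPA2.

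None of the HIRA complex genes was called with either shRNA. UBN1 (chr16:4846665-4882401, plus strand), the subunit that contacts H3.3, was at 3.39 and 3.35 log2 RPKM in shNT, at 3.47 and 3.26 with shCENPA1 and at 3.51 and 3.39 with shCENPA2. CABIN1 (chr22:24011192-24178628, plus strand) was at 3.18 and 3.20 in shNT, at 3.28 and 3.24 with shCENPA1 and at 3.39 and 3.17 with shCENPA2. The shNT values of both genes lay within or next to those of the CENPA-targeted libraries. The 95% intervals of the difference were -0.25 to 0.23 and -0.17 to 0.32 for UBN1, and -0.17 to 0.31 and -0.15 to 0.33 for CABIN1, with shCENPA1 and shCENPA2 in turn. HIRA (chr22:19330698-19447450, minus strand), the scaffold of the complex, was at 2.00 and 1.93 in shNT, at 2.09 and 2.20 with shCENPA1 and at 1.94 and 1.85 with shCENPA2. Its differences were 0.18 (-0.09 to 0.45; adjusted p = 0.428, limma) and -0.07 (-0.34 to 0.20; adjusted p = 0.735, limma). HIRA values are uncertain, because 2857 of its 4299 exon bases are also annotated, on the same strand, to C22orf39, and a pseudogene, HIRAP1, exists. At an unadjusted p below 0.05, 5 of the 9 chaperones were lower with each shRNA and none was higher, and limma-voom on the reads called 4 and 5 lower and none higher. The share of all genes under either rule is not given here, so these counts cannot be set against it.

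The order of levels, compared per length, changed with these falls. In shNT it ran SLBP, ASF1B, NASP, ASF1A, UBN1, CABIN1, CHAF1A, CHAF1B, HIRA, where ASF1B and NASP (both at a mean of 4.58 log2 RPKM) and CHAF1A and CHAF1B (both 2.34) overlapped. With shCENPA2 ASF1B was in place 6, below UBN1 and CABIN1, which overlapped, and HIRA (1.89) lay above CHAF1A (1.60) and CHAF1B (1.04). HIRA also lay above both with shCENPA1, at 2.14, beside 1.71 for the higher of them. The places of CHAF1A and ASF1B depend on the gene length behind RPKM. If the same reads were divided by GENCODE exon lengths, CHAF1A would lie above HIRA in all 3 groups. ASF1B with shCENPA2 would then be at 3.31 log2 RPKM, beside 3.28 for CABIN1 and 3.44 for UBN1.

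Over the 6 libraries, each set relative to its shNT mean, the chaperone nearest to ASF1B was CHAF1B, with a root mean square difference of 0.232 on the log2 scale, and the nearest to NASP was SLBP (0.115). UBN1 and CABIN1 were nearest to each other (0.076). Among all genes tested the 5 nearest to ASF1B were ST3GAL5 (0.048), UBE2C (0.051), TYMS (0.055), TACC3 (0.055) and FAM64A (0.065). ASF1A was in place 5716, at 1.08. TYMS, thymidylate synthase, had log2 fold changes of -1.11 under shCENPA1 and -1.68 under shCENPA2. UBE2C, a ubiquitin-conjugating enzyme of the anaphase-promoting complex, had changes of -1.13 and -1.59. The changes were -1.05 and -1.54 for ST3GAL5, -1.09 and -1.57 for TACC3, and -1.13 and -1.62 for FAM64A. All 5 genes were called with both shRNAs. Because they were picked for values near those of ASF1B, changes close to its own follow from that choice. The call of ST3GAL5, the nearest, with shCENPA1 was kept in 15 of 19 alternatives.

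The partners of these chaperones were examined as 6 lists, of which 47 genes were tested and IPO4 was not in the table. These lists too were chosen with earlier results of these data known. Of the 47, 9 fell with shCENPA1 and 19 with shCENPA2, with medians of -0.18 and -0.32 on the log2 scale, and none rose. Among all genes tested, 4.45% and 10.5% fell, and 2.69% and 8.05% rose. The same shares stand beside the counts of the single lists below. With shCENPA1, 19 of the 47 were lower and 1 higher at an unadjusted p below 0.05, and limma-voom called 12 lower and none higher. With shCENPA2, 28 were lower and none higher at the unadjusted p, and limma-voom called 22 lower and none higher. For these rules too the share of all genes is not given, here or for the single lists below. The counts were 5, 4 and 5 with shCENPA1 without shNT library 1, shNT library 2 and shCENPA1 library 2, and 11 with shCENPA2 without either shNT library.

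Of 8 genes at the replication fork that bind H3-H4 or CAF-1, or share a complex with a gene that does, 4 fell with shCENPA1 and 6 with shCENPA2, with medians of -0.58 and -0.84. MCM2, a subunit of the replicative helicase that also binds H3-H4, was at 4.37 and 4.30 log2 RPKM in shNT, at 3.36 and 3.32 with shCENPA1 and at 3.15 and 2.93 with shCENPA2. It fell to 50.2% and 40.7% of the control. The smallest mean change over both shRNAs in the list was that of POLE4, a histone-fold subunit of DNA polymerase epsilon, at 0.05 and -0.18, which was not called. Without shNT library 2 or shCENPA1 library 2 the count with shCENPA1 was 2.

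All 4 genes for the deposition of CENPA fell with both shRNAs, with medians of -0.84 and -1.15. HJURP, the chaperone of CENPA, was at 3.34 and 3.37 log2 RPKM in shNT, at 1.86 and 2.10 with shCENPA1 and at 1.71 and 1.59 with shCENPA2, with fold changes of -1.38 and -1.71. OIP5, a subunit of the Mis18 complex that prepares centromeres for new CENPA, changed by -1.06 and -1.51, and MIS18A of the same complex by -0.56 and -0.76. Without either shNT library the count with shCENPA1 was 2 of 4.

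In the list of histone supply (8 tested), 1 gene fell with shCENPA1 and 3 with shCENPA2, with medians of -0.18 and -0.23. Among all genes tested 4.45% and 10.5% fell. DNAJC9, a co-chaperone that binds H3-H4, changed by -0.53 and -0.80. RBBP4, the small CAF-1 subunit, which is also a subunit of several chromatin-modifying complexes, differed by -0.22 (adjusted p = 0.182, limma) and -0.20 (adjusted p = 0.143), with values of 5.22 and 5.27 log2 RPKM in shNT and of 4.97 to 5.11 in the CENPA-targeted libraries. Its paralog RBBP7 differed by -0.16 and -0.25 and was not called. CDAN1, a binder of ASF1, had the smallest mean change over both shRNAs, at -0.03 and 0.04, and was not called. The call of DNAJC9 with shCENPA1 was lost without any 1 of the shNT and shCENPA1 libraries (adjusted p from 0.0662 to 0.256, limma), and the count with shCENPA2 was 1 without either shNT library or without shCENPA2 library 1.

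None of the 5 genes listed under H3.3 deposition was called with either shRNA by limma or limma-voom. The list includes H3F3A and H3F3B, the genes of H3.3 itself. At an unadjusted p below 0.05, 1 was lower with each shRNA, UBN2 with shCENPA1 and H3F3A with shCENPA2. UBN2, the paralog of UBN1, differed by -0.32 and -0.18, ATRX, a chromatin remodeler, by -0.19 and 0.09, and its H3.3-binding partner DAXX by 0.11 and -0.07. Of 11 other chaperones, among them the subunits of FACT, none fell with shCENPA1 by either tool or at an unadjusted p below 0.05, and 4 fell with shCENPA2. That count of 4 was 6 by limma-voom and with quantile scaling of the libraries. It was 2 with median scaling or with library number as a block, and 0 with no trend in the variance. NAP1L1, a binder of H2A-H2B and H3-H4, changed by -0.41 with shCENPA2, and SPTY2D1, another H3-H4 chaperone, differed by -0.12 and -0.06. The 4 were all lost without shNT library 1, shNT library 2 or shCENPA2 library 1. Of 11 genes for the transcription and processing of histone mRNA, none was called with shCENPA1 (2 lower by limma-voom, and 5 lower and 1 higher at an unadjusted p below 0.05). With shCENPA2, 2 of them fell, as 10.5% of all genes tested did. ZNF473, a zinc finger protein of the U7 processing machinery, changed by -0.82 with shCENPA2 and differed by -0.34 with shCENPA1. NPAT, an activator of replicative histone genes, differed by -0.44 and -0.30 and was not called, and CPSF2 of the cleavage complex by -0.09 and 0.02. Without either shNT library the count with shCENPA2 was 1.

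Genes expressed around S phase were examined as a further list, chosen with earlier results of these data known. Of 36 such genes, none of them a chaperone of the set, 30 fell with shCENPA1 and 32 with shCENPA2. Among all genes tested 4.45% and 10.5% fell. The medians of the list were -1.03 and -1.39. The chaperones ASF1A, HIRA, UBN1 and CABIN1 were not called with either shRNA. The paper reports, from a stain of DNA content, that CENPA-depleted prostate cancer cells accumulated in G1, the phase before S phase. The share of cells in S phase was not analysed here, and its part in the result was not tested.

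**Figure D4:**
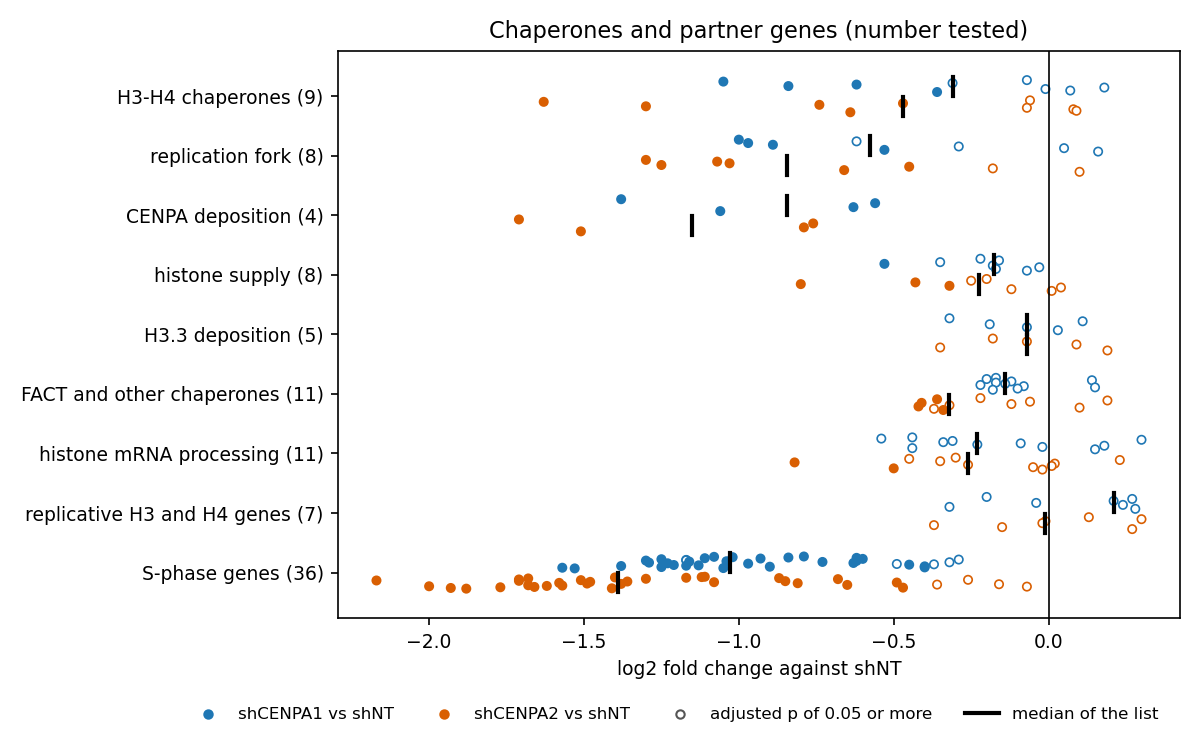
Log2 fold change against shNT (x axis) of the 9 chaperones, their partner lists, the replicative H3 and H4 genes and the S-phase genes (y axis, with the number tested); points are genes, open where the adjusted p was 0.05 or more, and black bars are medians. The medians of the S-phase list were -1.03 and -1.39, beside -0.31 and -0.47 for the chaperones and -0.07 with both shRNAs for H3.3 deposition.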

How the data were processed

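RNA of the 3 groups was sequenced by the authors with a stranded, poly(A)-selecting kit, and per the paper's methods reads were trimmed with TrimGalore, aligned with STAR to hg38, counted with HTSeq and tested for differential expression with edgeR (versions and HTSeq's strand setting are not given in the sources used here). The authors deposited log2 RPKM values for 12 runs, and the 2 lanes of a library were averaged. Whole reads could be recovered from the deposited values for all 14828 genes (within 0.001 of a whole read) and gave the depth, 79172294 to 133074655 reads per library; such totals cover counting error only. Lanes of a library differed by 1.24 to 1.31 in chi-square per gene and libraries of a group by 26.5 to 80.1.

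Genes whose log2 RPKM averaged -3 or more entered 1 fit over all 6 libraries (limma 3.58.1, R 4.3.3), with a trend in the variance and Benjamini-Hochberg adjustment over all 14624 genes, and log2 ratios within a library with an exact permutation test. The fit was tested on simulated data, in the comparison of shCENPA1 with shNT. It called 20 of 68 genes with a true log2 change of 0.5 in size, 54 of 66 with 1.0 and 62 of 66 with 2.0. Of 14424 unchanged genes it called 9. A gene with a small change can thus go without a call. Named genes were the 9 chaperones, CENPA, the partner genes more than 2-fold changed with both shRNAs, those with the largest and the smallest mean change in each list, RBBP4, RBBP7, DAXX, ATRX, UBN2, HJURP and NPAT, and the 5 genes nearest to ASF1B. The chaperones and lists were chosen with earlier results of these data known. Positions are from GENCODE and promoters from RefSeq, in which all 9 symbols were found.

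Alternatives were other filters, constants of 0.1 and 1 added to RPKM, quantile and median scaling, single lanes, lanes as replicates, no variance trend, only the groups compared, limma-voom on the recovered reads, a replicate block and leaving out each library. Ranges of adjusted p over all alternatives include lanes as replicates, which treats repeat runs as samples, so their low ends can overstate the evidence.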

Additional observations from a re-analysis of the deposited data

Results flagged for a closer look

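One result stood out by the test of the difference between the CENPA-targeted shRNAs. ASF1B was lower with shCENPA2 than with shCENPA1 by -0.57 on the log2 scale (adjusted p = 0.0348, limma), and both shCENPA2 libraries (3.05 and 2.86 log2 RPKM) lay below both shCENPA1 libraries (3.44 and 3.62). The share of all genes with libraries in this order is not given here. CENPA mRNA differed in the same direction, by -0.98 (adjusted p = 0.0209, limma), a call that was kept in 15 of 20 alternatives (adjusted p up to 0.212). Its part in the result was not tested.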

How the results depend on the processing

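No call changed its direction under any alternative run. Of the members' counts, that with shCENPA1 (4) was 3 to 5 under other settings and 1 to 4 with 1 library left out, where the lone library of a group was assumed to vary like the others, and that with shCENPA2 (5) was 4 or 5. The 1 chaperone beyond a 2-fold fall with shCENPA1 became 0 with 1 added to RPKM, and 0 to 1 with a library left out; the 2 with shCENPA2 became 1 with 1 added to RPKM, which shrinks the changes of low genes by its construction. The 1 chaperone that differed between the shRNAs, ASF1B, became 0 with lane 8 alone (adjusted p = 0.0733, limma), with no variance trend (0.124) and with the replicate block (0.0628), 0 to 1 with a library left out, and 4 chaperones differed with lanes as replicates, which treats repeat runs as samples; for the others the cause was not tested. SLBP with shCENPA1 was also lost with lane 7 alone (adjusted p = 0.0718, limma), no trend (0.13), median scaling (0.0805) and the replicate block (0.0768), and NASP with shCENPA2 with no trend (0.0642). Over the libraries' deviations, the correlations between same-numbered libraries were -0.06, -0.10 and -0.15 for the 3 pairs of groups. No shared deviation of same-numbered libraries was thus seen, which cannot show whether they were prepared together, and the labels do not say. Under the replicate block 3 chaperones fell with shCENPA1 and 5 with shCENPA2. With the numbers of shCENPA2 crossed, an alternative chosen after seeing the data, the counts were 3, 5 and, between the shRNAs, 1. Both ratios kept their direction in all 10 alternatives (-1.38 to -1.09 for ASF1B to ASF1A and 0.28 to 0.46 for CHAF1A to CHAF1B). Among single-gene values, 1752 stayed on their side of the threshold, 45 lost the call and 21 gained it, the last all with lanes as replicates. Each chaperone had at least 893 reads in a library, and libraries of a group differed far more than lanes of a library, so that the number of libraries rather than depth limits the precision.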
